A study of Rattus norvegicus with 12 samples.

Results

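RAH-6 is a rat androgenetic haploid embryonic stem (ES) cell line, and its 3 arrays were set against the 3 arrays of the diploid ES cell line DA5-3, which makes 6 of the 12 samples of the series. The samples were chosen by their titles alone. The androgenetic haploid line RAH-2, also with 3 arrays, was used to show which differences belonged to RAH-6 and were not found in RAH-2. The labels give the inbred DA (Dark Agouti) strain, N2B27-2i medium and the description as biological replicates for all 9 arrays of these 3 lines. Total RNA was hybridised to Affymetrix expression arrays, and expression is given as the MAS5 signal, a unitless brightness scaled here to the same trimmed mean on every array. Each line is 1 line, and a single diploid line serves as the control, so ploidy, androgenetic origin and any other difference between these lines cannot be told apart. Replicates are cultures of 1 line, so that no p-value covers the spread among independently derived lines.

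An androgenetic embryo carries only the genome of the sperm, and ES cells derived from it can be kept with a single chromosome set. Genes that are imprinted are transcribed from the maternal or the paternal copy only, so such cells lack the maternally marked copies altogether. The 2i medium holds inhibitors of MEK and GSK3, which block ERK signalling and release Wnt signalling, and keeps rodent ES cells in the naive state of the early epiblast. Haploid ES cells tend to become diploid in culture. The labels used here do not say whether the cells were sorted by ploidy before RNA was taken.

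The label of an ES cell line was checked against marker genes. Of the 19 measured genes of naive pluripotency, none was called between RAH-6 and DA5-3 by the rule given next (7.68% of all genes tested were), and Sox2, Klf4 and Esrrb were bright on all 9 arrays. By the adjusted p of that rule, without its limit on size, 11 of the 19 were lower in RAH-6 and 2 higher (25.4% and 30.3% of all genes were). No probe set here is named for Pou5f1 or Nanog. Markers of fibroblasts, the usual feeder cells, moved with the groups: the summed signal of 29 such genes lay between 29264 and 30592 in RAH-6, between 22710 and 29561 in RAH-2 and between 76771 and 81308 in DA5-3. Within RAH-2, replicate 2 stood apart, with Col1a1 at 543 against 89.2 and 123 on the other arrays of the line. Some of the results that rest on this library are given without it as well. In bulk RNA, fewer cells of a type and less RNA per cell cannot be told apart. The ratio of the 3' to the 5' probe set of Gapdh, a sign of RNA integrity, also moved with the lines, at 1.11 to 1.16 in RAH-6, 1.23 to 1.30 in RAH-2 and 1.35 to 1.69 in DA5-3. The same ratio of beta-actin spread more widely, at 2.94 to 3.28 in RAH-6, 3.99 to 4.93 in RAH-2 and 4.62 to 8.54 in DA5-3. The part of the fibroblast signal and of RNA integrity in the results below was not tested.

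RAH-6 differed from DA5-3 in 716 of 9324 genes tested, which is 7.68% of them. Of these genes, 445 were higher in RAH-6 (4.77%) and 271 lower (2.91%). A gene was called when its limma p-value, adjusted by Benjamini and Hochberg over all genes tested, was below 0.05 and its difference was at least 1 on the log2 scale, that is 2-fold. RAH-2, compared with the same 3 DA5-3 arrays, had 6.55% of the genes called, 313 higher (3.36%) and 298 lower (3.20%). Because both comparisons use the same DA5-3 arrays, a gene is described as different between the lines only where RAH-6 against RAH-2, in which DA5-3 cancels, was itself tested. That test called 0.804% of the genes, 57 higher in RAH-6 (0.611%) and 18 lower (0.193%). These counts were 110 higher without RAH-2 replicate 2, 36 higher without RAH-6 replicate 3 and 11 lower without RAH-2 replicate 1.

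Most of what RAH-6 showed against DA5-3 was shown by RAH-2 too. Of the 716 genes, 456 were called in the same direction in RAH-2, and none in the opposite one. The other 260 genes, 196 higher and 64 lower, were called in RAH-6 and not in RAH-2. A call missed in RAH-2 is not by itself a difference between the lines: of the 260, RAH-6 and RAH-2 differed in the same direction by the adjusted p in 142, which were 103 genes higher in RAH-6 (1.10% of all genes tested) and 39 lower (0.418%), together 1.52%. In 121 of these 142 genes RAH-2 also differed from DA5-3 by the adjusted p, and in 54 its difference was at least 0.75 on the log2 scale. In 37 of the 142, RAH-2 lay within 0.5 of DA5-3. Only 14 genes (0.150%), 10 higher (0.107%) and 4 lower (0.0429%), were also called between the lines with the full limit on size. The 10 were 20 without RAH-2 replicate 2 and 6 without RAH-6 replicate 3, and the 4 were 2 without RAH-6 replicate 2, RAH-2 replicate 1, RAH-2 replicate 3 or DA5-3 replicate 2. Of the 14, 5 reached 100 on fewer than 3 arrays outside RAH-6 (Sema3c, Nkg7, Gjb2, Krt79 and Aldh3b1), as did 14 of the 142. Such genes were tested only because RAH-6 was high, so the filter favoured a difference in them. The 4 lower genes reached 100 on no RAH-6 array and were tested only because RAH-2 and DA5-3 were high. These counts follow from rules applied to the same contrasts and are given as a description.

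**Figure D1:**
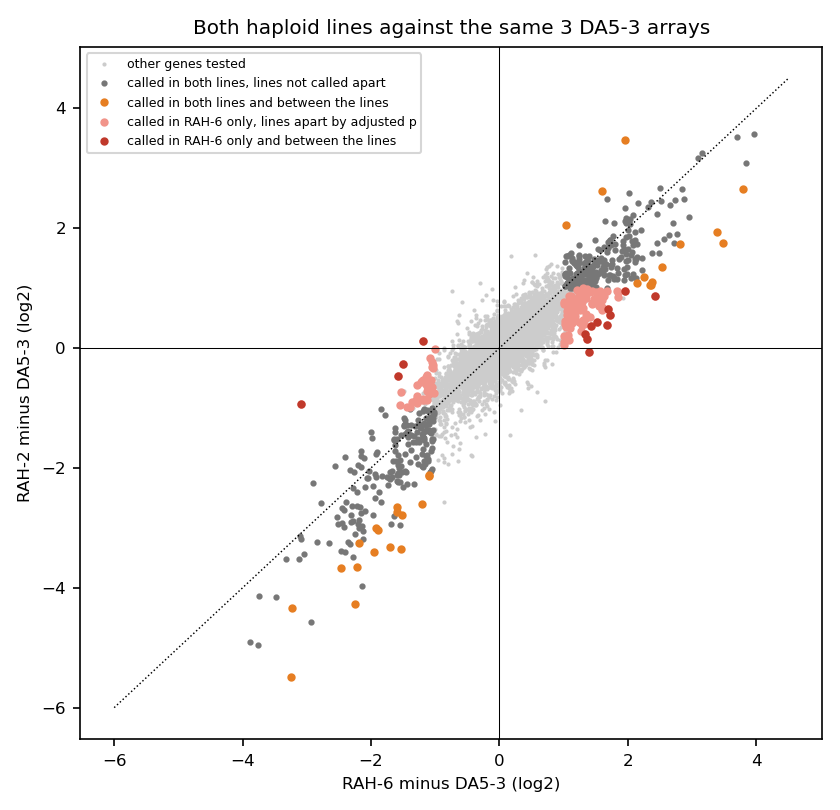
Each point is 1 of the 9324 genes tested, with its log2 difference in RAH-6 minus DA5-3 on the horizontal axis and in RAH-2 minus DA5-3 on the vertical axis, both from the same DA5-3 arrays. Dark red points are the 14 genes called in RAH-6 and between the lines but not in RAH-2, pink points the other genes of the 142, orange points the 30 genes called in both lines and between them, and the dotted line marks equal differences. No gene was called in opposite directions.

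Among the 10 higher genes of this class, Sh3gl3 had the largest difference from DA5-3. It encodes endophilin A3, a protein that bends membranes during endocytosis. Its signals were 516, 477 and 480.4 on the RAH-6 arrays, 139, 166 and 165 in RAH-2 and 86.7, 90.2 and 62.4 in DA5-3. The 3 lines did not overlap, with RAH-2 between the other two and every DA5-3 array below 100, the lowest signal taken as measured. The log2 difference was 2.42 ± 0.15 (SE) against DA5-3 (adjusted p = 5.84e-08, limma), a signal at least 4.91-fold higher, and 1.56 ± 0.15 against RAH-2 (adjusted p = 4.72e-05). It was the only gene of the 14 that kept both calls, and stayed without a call in RAH-2, under each of the 21 alternatives run with the limit on size.

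Of the other higher genes, Gjb2 encodes connexin 26, a gap junction channel, and Lpar6 a receptor for lysophosphatidic acid. Gjb2 read 251, 248 and 227 in RAH-6, 82.0, 135 and 87.6 in RAH-2 and 57.5, 65.5 and 64.6 in DA5-3. Every RAH-6 array stood above every array of the other lines. The log2 difference of Gjb2 was 1.72 ± 0.19 against DA5-3 (limma adjusted p = 8.2e-06, at least 2.42-fold) and 1.16 ± 0.19 against RAH-2 (limma adjusted p = 0.00138). It reached 100 on fewer than 3 arrays outside RAH-6, so its calls are no support for a difference. Lpar6 read 288, 296 and 330.5, 133, 157 and 130.3 and 94.5, 87.1 and 68.8 in the same order of lines. Its groups did not overlap either, and it was at least 3.04-fold higher in RAH-6 than in DA5-3 (log2 difference 1.70 ± 0.15, limma adjusted p = 1.62e-06) and higher than in RAH-2 by 1.04 ± 0.15 on the log2 scale (adjusted p = 0.000764).

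Sema3c, which encodes a secreted guidance semaphorin, is the gene of this class in which RAH-2 lay closest to DA5-3. Its signals were 171, 159 and 131 in RAH-6, 45.2, 43.3 and 48.0 in RAH-2 and 38.9, 61.2 and 46.9 in DA5-3. RAH-2 and DA5-3 overlapped below 100 while all RAH-6 arrays were above it, and Sema3c was at least 1.53-fold higher in RAH-6 than in either of them. It passed the limit of 100 through the RAH-6 arrays alone, so its calls are no support for a difference, and it was not tested when any 1 RAH-6 array was left out, because a probe set had to reach 100 on at least 3 arrays. Nkg7, known from the granules of cytotoxic lymphocytes, stood at 103, 124 and 115 in RAH-6, 43.1, 22.4 and 50.8 in RAH-2 and 12.5, 26.0 and 40.1 in DA5-3. It too passed through the RAH-6 arrays alone and was at least 1.14-fold higher than in each other line.

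Abcb1a encodes P-glycoprotein, the pump that exports drugs and lipids from cells. It read 342, 447 and 330.3 in RAH-6, 155, 192 and 146 in RAH-2 and 107, 155 and 152 in DA5-3. RAH-2 and DA5-3 overlapped while RAH-6 stood above both, with a log2 difference of 1.34 ± 0.17 against DA5-3 (limma adjusted p = 3.12e-05) and 1.11 ± 0.17 against RAH-2 (adjusted p = 0.0011). A second probe set of Abcb1a was dimmer and higher in RAH-6 by 0.95 and 0.85 on the same scale. The actin-binding regulator gene Phactr1 read 479, 341 and 388, 185, 181 and 187 and 135, 129 and 153 in RAH-6, RAH-2 and DA5-3. All 3 lines were apart, and the log2 difference of RAH-6 was 1.42 against DA5-3 and 1.05 against RAH-2. Tmem178b read 385, 423 and 413 in RAH-6 against 197, 177 and 179 in RAH-2 and 141, 103 and 157 in DA5-3, a difference of 1.52 and 1.08 from DA5-3 and RAH-2. The keratin gene Krt79 (187, 189 and 213 in RAH-6, 71.5, 101 and 100.1 in RAH-2, 54.7, 21.7 and 45.6 in DA5-3) and the aldehyde dehydrogenase gene Aldh3b1 (147, 187 and 203, 50.7, 108 and 54.7 and 67.3, 52.3 and 58.6) completed the 10. Krt79 lay just inside the limit of size between the lines, at 1.00, and met all 3 rules of the class in 10 of the 21 alternatives. Krt79 and Aldh3b1 were tested only because RAH-6 was high, so their calls are no support for a difference.

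**Figure D2:**
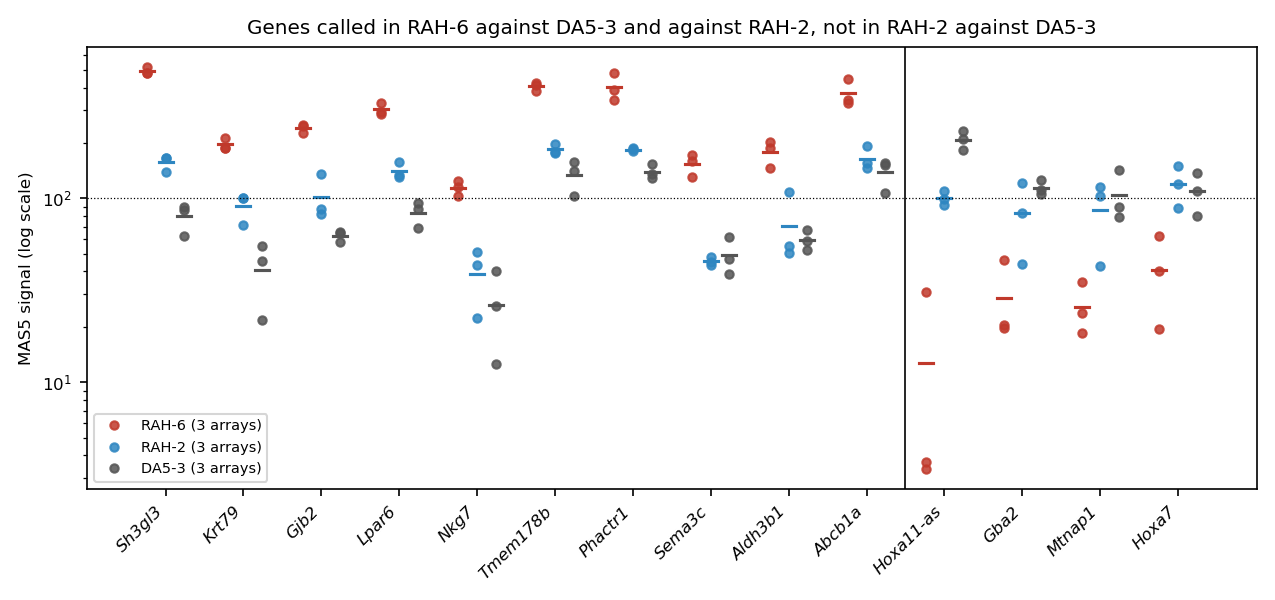
MAS5 signals on a log axis of the 14 genes called in RAH-6 against DA5-3 and against RAH-2 but not in RAH-2 against DA5-3, with 1 point per array, a bar at each line's mean and a dotted line at 100. To the left of the vertical line RAH-6 is the highest line for each gene, and 7 of these 10 genes have all DA5-3 arrays below 100; to the right all RAH-6 arrays of the 4 lower genes are below 100.

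The 4 lower genes of the class had every RAH-6 array below 100, so only bounds can be given for the size of the fall. They passed the limit of 100 through RAH-2 and DA5-3 arrays alone, so their calls are no support for a difference. Besides Hoxa11-as and Hoxa7, described next, they were Mtnap1 and Gba2. Mtnap1, which encodes a protein of the mitochondrial nucleoid, read 34.9, 18.4 and 23.8 in RAH-6, 114, 43.0 and 103 in RAH-2 and 89.6, 142 and 79.4 in DA5-3. The glucosylceramidase gene Gba2, named after its values were seen because 1 RAH-2 array fell within the range of RAH-6, read 20.4, 46.1 and 19.7, 121, 83.5 and 44.0 and 105, 125 and 111. Both stood near 100 in the other lines, so their bounds against DA5-3 were only 1.00-fold and 1.13-fold lower.

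Hoxa genes encode homeodomain factors that pattern the body axis, and most are held at a low level in ES cells. With 2 of the 4 lower genes in the Hoxa cluster, all 7 measured genes of the cluster were looked at after these values were seen. Hoxa11-as, an antisense transcript that starts beside Hoxa11, read 3.37, 31.0 and 3.69 on the RAH-6 arrays, 91.9, 109.7 and 99.5 in RAH-2 and 209, 182 and 231 in DA5-3. The 3 lines did not overlap, and RAH-6 was lower than DA5-3 by at least 2.06-fold (limma adjusted p = 4.16e-06). It was also lower than RAH-2 (limma adjusted p = 0.000684), but there the signals set no more than a bound of 1.00-fold. Hoxa11-as passed the limit of 100 through the other lines alone, so these p-values are no support for a difference. Its start site lies 227 bases from that of Hoxa11, on the opposite strand. Hoxa11 itself read 127, 113 and 171 in RAH-6, 282, 289 and 238 in RAH-2 and 281, 302 and 325 in DA5-3. RAH-2 and DA5-3 overlapped and RAH-6 was below both, by -1.08 ± 0.15 against DA5-3 on the log2 scale, which was a call, and by -0.92 ± 0.15 against RAH-2 (limma adjusted p = 0.00157), which missed the limit of size.

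All RAH-6 arrays were also below all others in 4 of the other 5 genes and in Hoxa7, while the order of RAH-2 and DA5-3 varied. Hoxa7 read 62.6, 19.4 and 40.3 in RAH-6, 119.6, 88.9 and 151 in RAH-2 and 137, 109.8 and 80.5 in DA5-3, Hoxa5 82.0, 68.8 and 79.3, 146, 123 and 156 and 159, 142 and 185, and Hoxa10 345, 324 and 289, 588, 619 and 626 and 508, 514 and 521. In each of them the RAH-6 arrays lay below all arrays of both other lines, and in Hoxa10 RAH-2 lay above DA5-3. Hoxa9 read 248, 252 and 206 in RAH-6, 916, 654 and 819 in RAH-2 and 375, 417 and 414 in DA5-3. Here RAH-2 was above DA5-3 and RAH-6 below it, so that the lines differed by -1.68 ± 0.12 on the log2 scale (limma adjusted p = 9.77e-06), although neither line passed the limit of size against DA5-3 (-0.74 in RAH-6, 0.95 in RAH-2). Hoxa3l1, the exception, read 158, 143 and 140.1, 148, 214 and 152 and 165, 175 and 170.3, and RAH-6 and RAH-2 overlapped (adjusted p = 0.438). Leaving aside Hoxa11-as and Hoxa7, for which the cluster was looked at, 4 of the other 5 genes were lower in RAH-6 than in RAH-2 by the adjusted p, beside 9.21% of all genes tested. Among the 4, Hoxa5 passed the limit of 100 through the other lines alone. The summed fibroblast markers were lower in RAH-6 than in DA5-3, as these genes were, but higher than on replicates 1 and 3 of RAH-2, and their part in the result was not tested.

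The 250 bases upstream of Hoxa7 and Hoxa11-as are shown because these are the Hoxa genes of the class, with CG dinucleotides, the target of DNA methylation, in capitals. The sequences are from RefSeq (GRCr8); that of Hoxa7 is at chr4:82648242-82648491 on the minus strand and that of Hoxa11-as at chr4:82676778-82677027 on the plus strand.
Hoxa7: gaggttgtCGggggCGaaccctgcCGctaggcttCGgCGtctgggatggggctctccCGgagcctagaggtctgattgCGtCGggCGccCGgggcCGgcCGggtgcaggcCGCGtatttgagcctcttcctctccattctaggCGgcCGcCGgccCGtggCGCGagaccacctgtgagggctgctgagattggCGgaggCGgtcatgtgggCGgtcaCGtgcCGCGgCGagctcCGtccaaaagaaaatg
Hoxa11-as: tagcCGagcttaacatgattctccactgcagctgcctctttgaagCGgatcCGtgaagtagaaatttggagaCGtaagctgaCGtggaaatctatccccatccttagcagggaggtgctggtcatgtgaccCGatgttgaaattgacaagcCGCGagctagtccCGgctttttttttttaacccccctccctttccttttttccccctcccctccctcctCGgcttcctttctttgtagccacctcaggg
The windows hold 28 and 10 CG, against a median of 5 in 33469 rat promoters, of which 35.9% hold at least 10. No methylation was measured, and the counts only describe the windows.

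**Figure D3:**
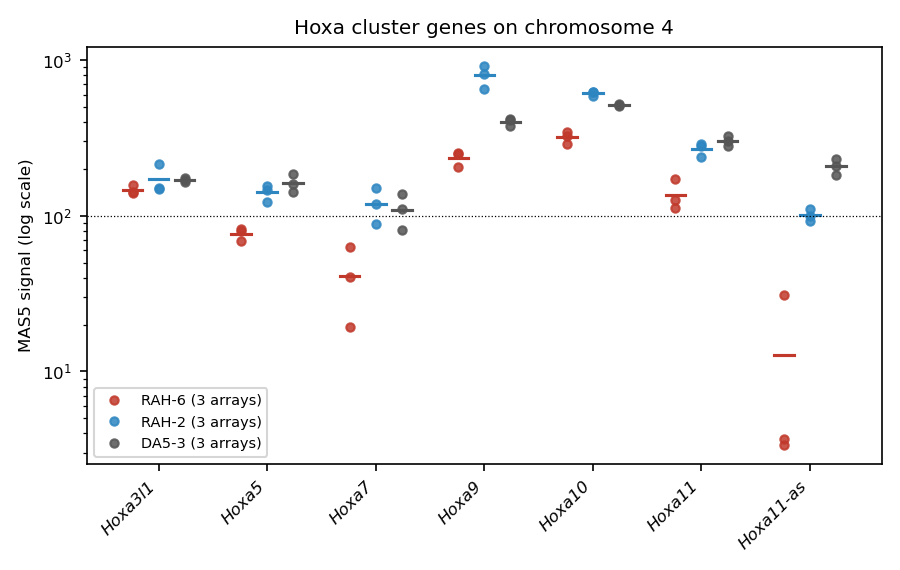
MAS5 signals on a log axis of the 7 measured Hoxa genes, with 1 point per array, a bar at each line's mean and a dotted line at 100. All RAH-6 arrays are below all arrays of both other lines in 6 genes, and in Hoxa3l1 RAH-6 overlaps RAH-2. All RAH-2 arrays are above all DA5-3 arrays in Hoxa9 and Hoxa10.

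A further 10 genes were higher than DA5-3 in both lines and still higher in RAH-6 than in RAH-2. Apart from S100a1 and Pmel they were named after their values were seen. Pmel encodes the fibril protein of melanosomes. It read 1170.2, 1219.6 and 1153 in RAH-6, 336, 398 and 309 in RAH-2 and 97.5, 102 and 76.7 in DA5-3, so that the lines formed 3 separate steps. The log2 difference was 3.48 ± 0.12 in RAH-6 and 1.75 ± 0.12 in RAH-2 against DA5-3, and 1.73 ± 0.12 between the lines (limma adjusted p = 9.77e-06). Skap1, known as an adaptor protein of T cells, had the same steps at 1591, 1614 and 1631, 573, 602 and 555 and 141, 112 and 167, with 1.46 between the lines. S100a1, a calcium-binding protein gene, read 1078, 1422 and 1346, 576, 596 and 547 and 25.0, 116 and 134, with 1.13 ± 0.35 between the lines (adjusted p = 0.0419). Its DA5-3 arrays were spread widely, but all of them lay below RAH-2, and without RAH-2 replicate 2 it was not called between the lines (adjusted p = 0.0676). Gsg1, Irak3, an inhibitor of Toll-like receptor signalling, Tmem140, the glutamine transporter gene Slc38a3 and Gpnmb differed between the lines by 1.07, 1.28, 1.32, 1.06 and 1.18. The dopamine transporter gene Slc6a3 and Tspan15 completed the 10. Both reached 100 on the RAH-6 arrays alone, so their calls are no support for a difference. They were at least 1.45-fold and 1.15-fold higher there.

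In the opposite case, 17 genes were lower than DA5-3 in both lines and less so in RAH-6. Fibroblast and matrix genes were among them: of the 29 measured fibroblast markers, 22 were called lower than DA5-3 in RAH-6 (2.91% of all genes were) and 25 in RAH-2 (3.20%). The collagen gene Col5a2 read 1319.8, 1405 and 1200.02 in RAH-6, 97.9, 1117 and 151 in RAH-2 and 12243, 12337 and 12877 in DA5-3. DA5-3 was far above both lines, and replicate 2 of RAH-2 was near RAH-6 while its other arrays were far lower. The vimentin gene Vim showed the same pattern at 1269, 1112 and 1059, 198, 1231 and 271 and 5206, 5168 and 5724, as did the metalloproteinase gene Mmp2 at 253, 315 and 336, 48.9, 214 and 54.9 and 1099, 994 and 934. Without replicate 2 of RAH-2 the log2 difference between the lines went from 2.25 to 3.26 for Col5a2 and from 1.63 to 2.22 for Mmp2. Between the lines 7 of the 29 markers were called higher in RAH-6 (0.611% of all genes were), and 16 without replicate 2 of RAH-2. The S100a4 gene, on the fibroblast list as well, was called between the lines (367, 368 and 425 in RAH-6, 76.8, 398 and 80.4 in RAH-2, 521, 496 and 557 in DA5-3), with RAH-2 replicate 2 within the range of RAH-6 and a log2 difference of 1.38 with that array and 2.09 without it.

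Gene groups were then described by the number of members past the adjusted p between the lines, since few members passed the limit of size. Over all genes tested 9.76% were higher and 9.21% lower in RAH-6 than in RAH-2, with a median log2 difference of 0.0062. With arrays centred on their median that median was -0.0953, and counts are given under that scaling where they changed by over 1.5 times. Members of a list are not independent, and the lists were not tested as sets. A gene past the adjusted p against both other lines is also past it between RAH-6 and RAH-2. The share of all genes higher than both other lines is therefore at most 9.76%, and of those lower than both at most 9.21%.

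Of 28 measured genes of cholesterol and fatty acid synthesis, some of them regulators such as Srebf1, Srebf2 and Insig1, 15 were lower in RAH-6 than in both other lines by the adjusted p and 1 was higher. The enzymes among them turn acetyl-CoA into sterols and fatty acids, and many are switched on together by the SREBP transcription factors when sterols are low. Of the 28, 20 were lower in RAH-6 than in DA5-3 by the adjusted p (25.4% of all genes were) and 10 in RAH-2 (22.5%). Between the lines 16 were lower in RAH-6 and 1 higher, and the number lower ranged from 13 to 17 over the alternatives. The list median was -0.40 for RAH-6, -0.12 for RAH-2 and -0.28 between the lines, each on the log2 scale. Scd, Fasn, Mvd and Elovl6 were called in RAH-6, and no member was called in RAH-2.

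Scd encodes the desaturase that makes monounsaturated fatty acids. It read 965, 918 and 954 in RAH-6, 1144, 1336 and 1294 in RAH-2 and 2417, 2404 and 2712 in DA5-3. RAH-6 was the lowest line and DA5-3 the highest without overlap, and the log2 difference was -1.39 ± 0.07 in RAH-6 (limma adjusted p = 1.59e-08), -0.99 ± 0.07 in RAH-2, just short of the limit, and -0.40 ± 0.07 between the lines (adjusted p = 0.00275). Fasn, the fatty acid synthase gene, read 3855, 4017 and 4007, 5912, 5133 and 5001 and 10605, 9235 and 9377 in the same order. These values had the same 3 steps, with -0.43 ± 0.07 between the lines (limma adjusted p = 0.00129). The steps were again seen in the elongase gene Elovl6, at 612, 724 and 736, 911, 931 and 917 and 1424, 1422 and 1493, and in the mevalonate decarboxylase gene Mvd, at 523, 596 and 561, 637, 695 and 759 and 1433, 1134 and 1288.

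In other sterol genes RAH-2 overlapped DA5-3 or lay nearer to it than RAH-6 did. The squalene epoxidase gene Sqle read 2227, 2329.9 and 2156 in RAH-6, 3267, 3479 and 3150.3 in RAH-2 and 3011, 3208 and 3132 in DA5-3. RAH-2 and DA5-3 overlapped and RAH-6 was below both, by -0.56 ± 0.05 on the log2 scale against RAH-2 (limma adjusted p = 5.88e-05). Msmo1, the sterol C4-methyl oxidase gene, read 2516, 2441 and 2535, 3686, 3735 and 3674 and 3934, 4129.7 and 4226, with -0.56 ± 0.05 between the lines (adjusted p = 1.78e-05). Insig1, whose product holds back SREBP activation, read 2918, 2629 and 2931, 3245, 3913 and 3239 and 3314, 3217 and 3172, with -0.29 between the lines. Of the SREBP genes, Srebf1 read 811, 768 and 772, 798, 836 and 998 and 1005, 999 and 1024, and Srebf2 942, 1049 and 1018, 1118, 1179 and 976 and 1518, 1134 and 1155. Both were lower in RAH-6 than in DA5-3, by -0.36 ± 0.08 and -0.32 ± 0.11 on the log2 scale (adjusted p = 0.00246 and 0.0214, limma). Neither passed the test between the lines (adjusted p = 0.209 and 0.482, limma), with log2 differences of -0.15 ± 0.08 and -0.12 ± 0.11.

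The upstream windows of 3 genes lower in RAH-6 are shown with the CCAAT box, the site that NF-Y binds in many sterol gene promoters, in capitals on either strand (ATTGG on the other). They are from RefSeq (GRCr8): Msmo1 at chr16:29746863-29747112 on the plus strand, Nsdhl, a sterol dehydrogenase gene, at chrX:155817110-155817359 on the plus strand, and Mvd at chr19:67414975-67415224 on the minus strand.
Msmo1: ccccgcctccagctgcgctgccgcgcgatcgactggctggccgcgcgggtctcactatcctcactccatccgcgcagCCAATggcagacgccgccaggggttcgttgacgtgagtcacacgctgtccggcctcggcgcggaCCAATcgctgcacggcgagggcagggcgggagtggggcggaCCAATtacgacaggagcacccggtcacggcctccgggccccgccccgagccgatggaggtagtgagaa
Nsdhl: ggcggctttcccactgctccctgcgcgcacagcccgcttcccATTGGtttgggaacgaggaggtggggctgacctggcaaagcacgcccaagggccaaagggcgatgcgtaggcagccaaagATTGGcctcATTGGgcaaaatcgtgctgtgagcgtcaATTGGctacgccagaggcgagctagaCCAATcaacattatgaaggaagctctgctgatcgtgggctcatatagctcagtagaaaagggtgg
Mvd: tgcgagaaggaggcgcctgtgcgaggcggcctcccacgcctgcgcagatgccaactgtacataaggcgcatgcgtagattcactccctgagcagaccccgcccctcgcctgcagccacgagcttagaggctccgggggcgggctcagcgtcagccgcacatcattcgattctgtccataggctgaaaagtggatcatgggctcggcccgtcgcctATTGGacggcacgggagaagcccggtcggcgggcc
The windows hold 3, 5 and 1 CCAAT boxes. Of the 21 listed genes with a promoter in the table, 17 held the box, which is 81%, beside 36.1% of 27457 genes. Among the 11 of them lower in RAH-6 than in RAH-2, 8 held it. The sterol response element in the form TCACNCCAC was in none of the 21 windows and in 1.09% of all genes. The other motifs searched, 9 in all and chosen after values were seen, were in 7 or fewer of the 21 windows: TCACGTGA in 0, TGACNNNGC in 7, CATGTG in 3, CTTTGA in 1, ACGTGC in 0, the CArG box in 0 and GGGTGTGG in 1, beside 0.776%, 11%, 12.9%, 14.9%, 5.25%, 1.62% and 3.08% of all genes. These matches describe the windows and show no binding.

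Lysosome and autophagy genes lay the other way. Of 27 measured members, 21 were higher in RAH-6 than in DA5-3 by the adjusted p (30.3% of all genes were) and 9 in RAH-2 (28.1%). Between the lines 17 were higher in RAH-6 and 1, the autophagy kinase gene Ulk1, was lower; with median centring 12 were higher. None was called in any of the 3 comparisons. The protease gene Ctsb read 11155, 12448 and 12123 in RAH-6, 7861, 8823 and 8268 in RAH-2 and 7157, 6283 and 6271 in DA5-3. All 3 lines were apart, with 0.52 ± 0.06 between the haploid lines (limma adjusted p = 0.00023). The cathepsin gene Ctsd read 3136, 3877 and 3754, 2449, 2763 and 2359 and 2534, 2320.3 and 2685, and Grn, the progranulin gene, 7999, 8190.2 and 8910.1, 5642, 5533 and 5395 and 6816, 6129.9 and 6220.3. RAH-6 was above both other lines in each, and Grn was lower in RAH-2 than in DA5-3.

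**Figure D4:**
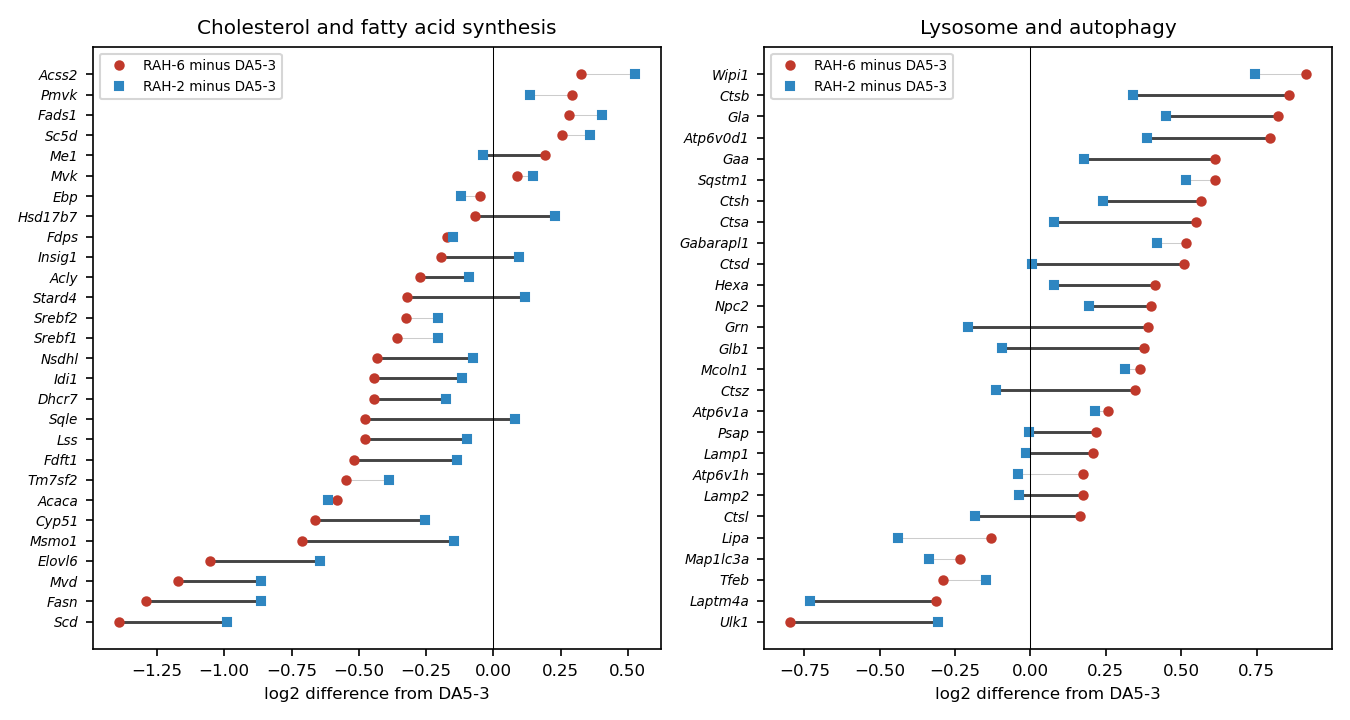
Log2 difference from DA5-3 of each measured member of 2 lists, in RAH-6 (red circles) and in RAH-2 (blue squares), with dark lines joining the pairs that differed between the lines by the adjusted p. In the left panel 16 of 28 genes of the synthesis list are lower in RAH-6 than in RAH-2, and in the right panel 17 of 27 genes of the lysosome list are higher.

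Most response genes of hypoxia were lower in RAH-6 than in RAH-2. Of 18 measured members, 13 were lower in RAH-6 than in RAH-2 by the adjusted p and 1 higher, and 4 were called lower (0.193% of all genes were). Only 5 were lower in RAH-6 than in both other lines. Against DA5-3, 7 were higher and 7 lower in RAH-6 by the adjusted p (30.3% and 25.4% of all genes were). In RAH-2, 11 were higher and 3 lower (28.1% and 22.5% of all genes). Ankrd37, an early target of hypoxia-inducible factor, read 357, 328 and 352 in RAH-6, 892, 873 and 957 in RAH-2 and 348, 317 and 253 in DA5-3. RAH-6 overlapped DA5-3 while RAH-2 was above both, with -1.35 ± 0.11 between the lines (limma adjusted p = 1.7e-05). Ddit4, an inhibitor of mTORC1 signalling, read 1138, 1001 and 1014, 2426, 2716 and 3010.2 and 1569, 1399 and 1781, and the oxidoreductase gene Ero1a 917, 743 and 922, 1772, 1934 and 1881 and 1481, 1287 and 1326. In both, RAH-6 was below DA5-3 and RAH-2 above it, though neither line passed the limit of size against DA5-3. The vasodilator peptide gene Adm was higher than DA5-3 in both lines, at 329, 315 and 323 in RAH-6, 851, 1049 and 973 in RAH-2 and 68.7, 77.5 and 67.5 in DA5-3, with a log2 difference of -1.52 ± 0.11 for RAH-6 minus RAH-2. Of 23 glycolysis genes, 7 were lower in RAH-6 than in RAH-2 and none higher; with median centring 11 were lower. One of them, Pfkfb3, was called, at 641, 655 and 657 in RAH-6, 1429, 1419.95 and 1661 in RAH-2 and 984, 1014 and 1056 in DA5-3.

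Of 12 measured Wnt target genes, 7 were lower in RAH-6 than in RAH-2 by the adjusted p and none higher, and the list medians against DA5-3 were -0.72 in RAH-6 and -0.15 in RAH-2 (-0.59 and -0.15 with genes below 100 at their bound). Axin2, a feedback inhibitor of the pathway, read 221, 259 and 218 in RAH-6, 408, 331 and 387 in RAH-2 and 649, 658 and 388 in DA5-3. RAH-6 lay below both, which overlapped, and Axin2 was called in RAH-6 (-1.19 ± 0.17, limma adjusted p = 9e-05) and not in RAH-2 (-0.54 ± 0.17), with -0.65 between the lines. Lef1, a transcription factor of the pathway, read 2088, 2378 and 2383, 4176, 3608 and 3859.7 and 3469, 3683 and 3464, and Bmp4, a growth factor gene on the list, 1030.02, 1061 and 941, 1642, 1352 and 1493 and 2379.7, 2229 and 2174. RAH-6 was the lowest line in both. Tcf7 was above DA5-3 in both haploid lines (1.71 in RAH-6, 1.76 in RAH-2).

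Among the 19 naive pluripotency genes 7 were lower in RAH-6 than in RAH-2 by the adjusted p and 1, Jam2, was higher. Sox2, a core factor of the pluripotent state, read 5559, 5455 and 5327 in RAH-6, 8516, 6682 and 8301 in RAH-2 and 7261, 8347 and 8626 in DA5-3. RAH-2 and DA5-3 overlapped and RAH-6 was below both, by -0.51 ± 0.08 against RAH-2 (limma adjusted p = 0.00167). Klf4 read 3667, 3435 and 3529, 4250.2, 4207 and 4319 and 5734, 6215 and 6672, and Esrrb 3025, 3084 and 3272, 3872, 3931 and 3904 and 5284, 5066 and 5229.6, each with RAH-6 lowest and DA5-3 highest. The homeobox gene Gbx2 was the 1 member called between the lines, at 713, 680.5 and 647 in RAH-6, 1661, 1109.8 and 1644 in RAH-2 and 1043, 1002 and 1193 in DA5-3. The difference of -1.07 ± 0.13 (adjusted p = 0.000213, limma) had RAH-6 below and most of RAH-2 above DA5-3. Against DA5-3, Jam2 in RAH-2 was the 1 member called in either line.

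Of 20 measured ERK target genes, 6 were higher in RAH-6 than in RAH-2 by the adjusted p and 3 lower. By the adjusted p alone, 14 were higher than DA5-3 in RAH-6 and 13 in RAH-2 (30.3% and 28.1% of all genes were). With the limit on size, 10 were called higher and 1 lower than DA5-3 in RAH-6, and 7 higher and 1 lower in RAH-2 (4.77% and 3.36% of all genes were called higher). The 3 called higher in RAH-6 alone were Dusp6, Fosl1 and Atf3, named after their values were seen. Dusp6, the phosphatase that turns ERK off, read 1318, 1485 and 1469 in RAH-6, 666, 1069 and 703 in RAH-2 and 589, 529 and 582 in DA5-3. RAH-6 was above every other array, with 1.30 against DA5-3, 0.48 in RAH-2 and 0.83 ± 0.14 between the lines (limma adjusted p = 0.00191). Atf3 also differed between the lines, by 0.37, whereas Fosl1, at 0.58, did not pass the test (adjusted p = 0.0542).

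**Figure D5:**
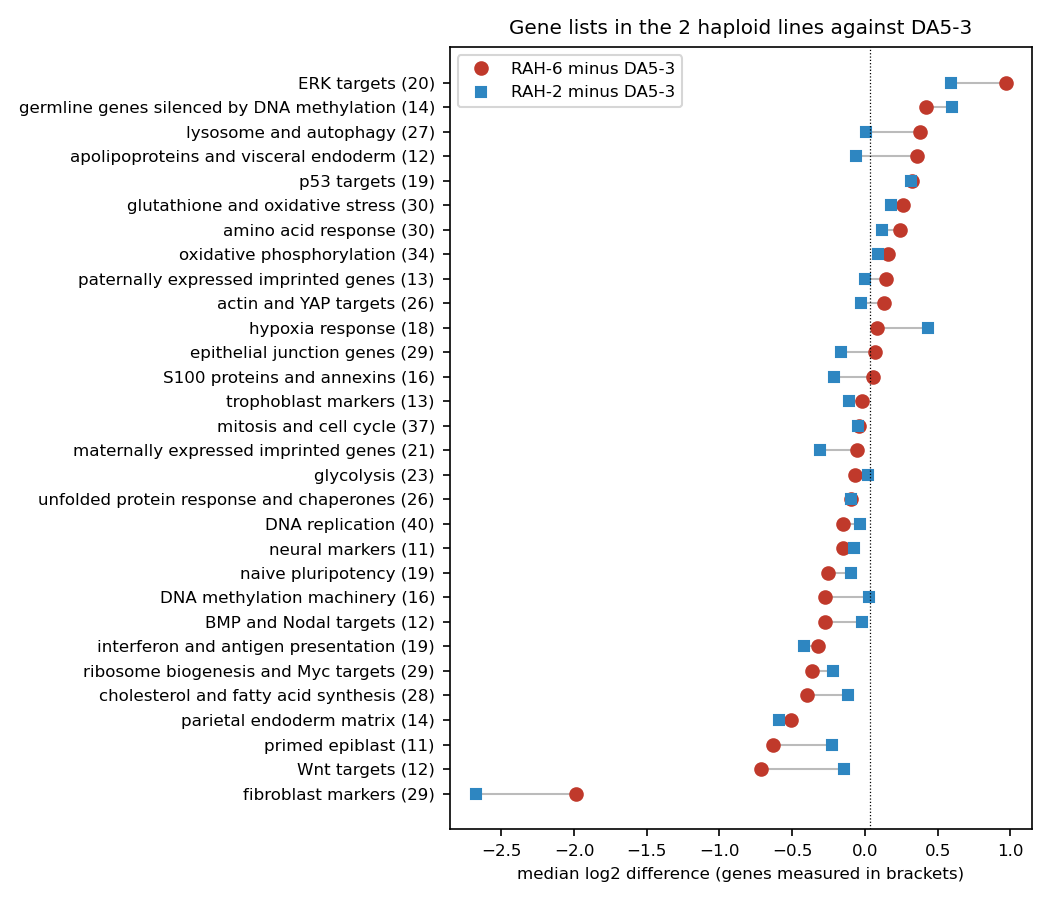
Median log2 difference from DA5-3 over the measured members of each list with at least 10 of them, in RAH-6 (red circles) and RAH-2 (blue squares), with the number of members in brackets and the median of all genes in RAH-6 as a dotted line. The lines lie apart for the lysosome list (0.38 and 0.01), the Wnt targets (-0.72 and -0.15) and hypoxia genes (0.08 and 0.44), and close together for p53 targets.

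More members were higher in RAH-6 than in RAH-2 than were lower in 16 of the 36 lists, and fewer in 15. Among the 16, 11 of 30 glutathione and oxidative stress genes were higher and 2 lower, and 6 of 30 amino acid response genes higher and 2 lower. Of 26 actin and YAP target genes, 15 were higher by the adjusted p and 1 lower, and of 16 S100 and annexin genes 10 were higher and none lower. Only 8 and 3 of them were higher in RAH-6 than in DA5-3 as well. Against DA5-3, 6 S100 and annexin genes were higher and 5 lower in RAH-6 by the adjusted p (30.3% and 25.4% of all genes were). In RAH-2, 5 were higher and 8 lower (28.1% and 22.5% of all genes). Ccn2, a matricellular protein gene that YAP activates, read 9168, 9222 and 9249.7 in RAH-6, 5845, 6689 and 6078 in RAH-2 and 5317, 5278 and 5802 in DA5-3, with RAH-6 above all other arrays. Several members of these lists are fibroblast genes and moved with replicate 2 of RAH-2, such as S100a6 at 2236, 2192 and 2251 in RAH-6, 830.4, 1992 and 827 in RAH-2 and 4652, 4712 and 4669 in DA5-3. The counts of the actin and YAP and of the S100 and annexin lists are given with that array included. Of 29 epithelial junction genes 11 were higher and 2 lower, and 6 were higher with median centring. In the main fit 6 were higher in RAH-6 than in both other lines. The tight junction gene Ocln read 5018, 4878 and 4887, 3126, 3297 and 3019 and 2442, 2854 and 2878 in RAH-6, RAH-2 and DA5-3. RAH-2 was close to DA5-3 and RAH-6 above both, by 0.65 ± 0.06 against RAH-2 (limma adjusted p = 5.89e-05). Of 12 visceral endoderm genes, 7 were higher in RAH-6 than in RAH-2 and none lower, and 4 were higher than in both other lines. The endoderm factor gene Sox7 read 313, 300.5 and 315, 170.2, 154 and 133 and 168, 177 and 137, where RAH-2 overlapped DA5-3, and the apolipoprotein gene Apoa2 478, 499 and 476, 247, 243 and 283 and 157, 106 and 118, in 3 steps.

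Imprinted genes bear on the single parental genome of the lines, and which copy is active is taken here from what is known in the mouse. Plagl1 encodes a zinc finger factor transcribed from the paternal copy. It read 788, 1053 and 1009 in RAH-6, 705, 615 and 273 in RAH-2 and 308, 234 and 215 in DA5-3. RAH-6 was above every other array, and 1 RAH-2 array fell within the range of DA5-3. Plagl1 was called in RAH-6 (1.85 ± 0.27, limma adjusted p = 8.31e-05) and not in RAH-2 (0.94 ± 0.27), and the lines differed by 0.91 ± 0.27 (adjusted p = 0.0323). Igf2, another paternally expressed gene, was lower than DA5-3 in both lines (-3.12 in RAH-6, -3.52 in RAH-2), and the difference between them did not pass the test (adjusted p = 0.0977).

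Maternally expressed genes did not move as one. The placental growth gene Phlda2 read 199.95, 192 and 204 in RAH-6, 43.7, 68.1 and 53.3 in RAH-2 and 89.8, 126 and 132 in DA5-3. RAH-6 was above and RAH-2 below DA5-3, without overlap, and as all RAH-2 arrays were below 100, RAH-6 was at least 1.99-fold above RAH-2 (limma adjusted p = 0.000198) and RAH-2 at least 1.14-fold below DA5-3. Phlda2 reached 100 on fewer than 3 arrays outside RAH-6, so its call between the lines is no support for a difference. The noncoding RNA gene H19 read 3486, 4051 and 3762, 2305, 2658 and 2625 and 3610.2, 3755 and 3840.4. RAH-6 overlapped DA5-3 (log2 difference 0.01 ± 0.07) and RAH-2 was below both. The lactonase gene Pon3 was called higher in RAH-6 (1.17) and not in RAH-2 (0.61). The ubiquitin ligase gene Ube3a was called lower in RAH-6 (-1.13) and not in RAH-2 (-0.87), but its probe sets disagreed: against DA5-3 another bright one gave -0.66 in RAH-6 and a dimmer one 0.18. Of the 36 genes among the 142 with several measured probe sets, 4 had probe sets of opposite direction, Ube3a among them.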

How the data were processed

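The authors' deposited values are log2 MAS5 signals of 31099 probe sets, the MAS5 software being named in the submitters' processing notes; no version is given in the sources used here. They were turned back to signals, each array was rescaled to a 2% trimmed mean of 500, and log2(signal + 16) was fitted over the 9 ES cell arrays with limma 3.58.1 (lmFit and eBayes with trend, R 4.3.3). All differences are on that scale, which understates changes of dim genes. Probe sets had to reach 100 on at least 3 arrays, and the brightest per gene was tested. Of the probe sets, 20832 are named for 1 gene, 436 for several and 9831 for none, and the latter groups were not used. Where all arrays of a group were below 100, a fold is a bound, the other group's geometric mean over 100. The number of arrays limits the precision.

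RAH-6 against RAH-2 is the test of the difference between the lines. The 36 gene lists were written from general knowledge, and the members and lists were chosen with earlier results of these data known. Genes were named by rule: up to 12 rises and 12 falls of the class whose arrays overlapped neither other line, 6 rises and 6 falls shared by both lines, up to 4 called members per list and comparison, and a set of looked-up genes; others (among them Hoxa5, Hoxa9, Hoxa10, Hoxa11, Msmo1, Ctsb, Ctsd, Grn, Ulk1, Axin2, Lef1, Ocln, Sox7, Ccn2, S100a6, Vim and Jam2) were picked after their values were seen. Replicate numbers did not pair the samples: deviations of same-numbered arrays correlated at -0.135 to 0.0397. No 2 of the 9 arrays were identical. The round sperm cell arrays were left out of the fit, because freshly isolated germ cells need not vary as cultured lines do. The fit was tested on simulated data. Alternatives covered the offset, filter, scaling, probe set rule, groups in the fit, fold limit, replicate block and each left-out array.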

Additional observations from a re-analysis of the deposited data

Results flagged for a closer look

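The effect against DA5-3 differed between RAH-6 and RAH-2 in 36 of the genes named by rule, by limma's test of RAH-6 minus RAH-2; all values below are that fitted log2 difference, and no explanation was tested. Where all arrays of the lower line were below 100, the fold itself is only bounded and the bound is given. Of the class called in RAH-6 and not in RAH-2, the higher genes were Sh3gl3 (1.56), Sema3c (1.46, at least 1.53-fold), Nkg7 (1.28, at least 1.14-fold), Aldh3b1 (1.21), Gjb2 (1.16), Abcb1a (1.11), Tmem178b (1.08), Phactr1 (1.05), Lpar6 (1.04) and Krt79 (1.00). The lower ones were Hoxa11-as (-2.15, at least 1.00-fold), Hoxa7 (-1.31, at least 1.17-fold) and Mtnap1 (-1.24, with no bound). Sema3c and Nkg7 reached 100 on the RAH-6 arrays alone, and Gjb2, Krt79 and Aldh3b1 on fewer than 3 arrays outside RAH-6. Hoxa11-as, Hoxa7 and Mtnap1 reached 100 on no RAH-6 array. For all of these genes the filter chose which were tested, so their tests are no support for a difference.

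Pmel (1.73) and S100a1 (1.13) were higher than DA5-3 in both lines and farther in RAH-6, and Adm (-1.52) farther in RAH-2. The genes that were lower than DA5-3 in both lines, and less so in RAH-6, were Col5a2 (2.25), S100g (1.82, at least 1.41-fold), Mmp2 (1.63), Tnc (1.26, at least 1.08-fold), Gap43 (1.21), Sparc (1.14), Ccdc80 (1.10) and Tpm2 (1.09). Without RAH-2 replicate 2 these were 3.26 for Col5a2, 1.90 for S100g, 2.22 for Mmp2, 1.53 for Tnc, 1.78 for Gap43, 1.61 for Sparc, 1.59 for Ccdc80 and 1.38 for Tpm2, and S100a1 was not called (1.16, adjusted p = 0.0676).

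The remaining genes were not called in RAH-6 against DA5-3. Among them Phlda2 (1.61, at least 1.99-fold), S100a4 (1.38, or 2.09 without RAH-2 replicate 2), Plat (1.12), Tagln (1.11, at least 1.22-fold), Crb3 (1.07) and Tap2 (1.04, with no bound) were higher in RAH-6 than in RAH-2. Phlda2 reached 100 on fewer than 3 arrays outside RAH-6, so its test is no support for a difference. Ddit4 (-1.35), Ankrd37 (-1.35), Pfkfb3 (-1.18), Ero1a (-1.11), Gbx2 (-1.07) and Grhl3 (-1.01) were lower.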

How the results depend on the processing

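Under each alternative run, RAH-6 had more genes above DA5-3 than below it. The counts named in this part give higher before lower, and those not named stayed within 1.5 times the reported ones. With an offset of 64 in place of 16, RAH-6 against RAH-2 called 17 and 9 genes, RAH-2 against DA5-3 178 higher, and the class of RAH-6 and not RAH-2 held 3 and 1 genes; 2 of its 14 genes were kept. An offset of 1 and the deposited log2 values each put 16 higher genes in that class. Without a filter RAH-6 against RAH-2 called 87 higher, RAH-2 against DA5-3 461 lower and the class 21 and 8; with a filter at 200 these were 35, 185, and 6 and 0. A fit of only the 2 groups compared left 0 lower class genes. Median centring, which moved the median of all genes between the lines from 0.0062 to -0.0953, left 6 higher class genes, and 63 of the 103 genes by the adjusted p alone, a result added after seeing the data. It also lowered the share of higher calls between the lines from 76.0% to 64.1%, and an offset of 64 to 65.4%.

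Leaving out 1 array at a time gave 421 to 463 genes higher and 187 to 281 lower in RAH-6 against DA5-3. In RAH-6 against RAH-2 the range was 36 (without RAH-6 replicate 3) to 110 (without RAH-2 replicate 2) higher and 11 (without RAH-2 replicate 1) to 18 lower, and in RAH-2 against DA5-3 302 to 322 higher and 204 to 330 lower. The class held 6 (without RAH-6 replicate 3) to 20 (without RAH-2 replicate 2) higher and 2 to 4 lower genes, the 2 coming without RAH-6 replicate 2, RAH-2 replicate 1 or 3, or DA5-3 replicate 2. By the adjusted p alone it was 72 to 113 and 26 to 41. Fewer arrays leave fewer probe sets at 100 on 3 arrays. Without DA5-3 replicate 1 and RAH-2 replicate 2 together, RAH-6 was lower in 178 genes than DA5-3 and higher in 96 than RAH-2, and the class held 17 higher genes.

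Without the limit on fold size RAH-6 against DA5-3 had 2826 and 2367 genes, RAH-6 against RAH-2 910 and 859, RAH-2 against DA5-3 2617 and 2101, and the class 260 and 286. With the replicate number as a replicate block, RAH-6 against DA5-3 called 445 and 271, RAH-6 against RAH-2 59 and 18, RAH-2 against DA5-3 314 and 298, and the class 10 and 4, the same 14 genes; the numbers do not pair the samples. The cause of these shifts was not tested. Signals near 100 limit the class: 7 of its 10 higher genes are below 100 in DA5-3 and its 4 lower genes in RAH-6.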
